A study of Mus musculus with 18 samples.

Results

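Epithelial-to-mesenchymal transition (EMT) transcription factors and the mesenchymal filament protein vimentin were followed in mammary tumours of 2 ErbB2 mouse models and in normal mammary gland. The set held 8 genes of the 28919 genes or unnamed transcripts on the array: Snai1, Snai2, Twist1, Twist2, Zeb1, Zeb2, Foxc2 and Vim. Every probe carrying one of these symbols or an older one was taken, which gave 13 of 41174 probes. Zeb2 had 5 probes, Vim had 2 and each other gene had 1. For a gene with several probes, the leading probe is the one that was brightest on average over the 10 KI arrays.

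EMT is the programme by which epithelial cells lose apical junctions and gain motility. Snail, Twist and Zeb proteins are DNA-binding factors that drive it: Snail and Zeb proteins bind E-box sequences in the promoters of junction genes such as E-cadherin and repress them, Twist proteins are basic helix-loop-helix factors, and Foxc2 is a forkhead factor that acts downstream of several EMT inducers. Vimentin is the intermediate filament of mesenchymal cells and a standard readout of EMT. In the normal mammary gland these genes are expressed mainly outside the luminal cells: Snai2 in basal epithelium, and Twist, Zeb and Vim in fibroblasts, endothelium and other stroma. By its title the series concerns β-catenin, the transcriptional effector of the Wnt pathway, in ErbB2 tumours.

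All mice were female and of the FVB/N strain, and each RNA came from whole frozen tissue. The 5 ErbB2 knock-in (KI) tumours were single tumours, each a replicate. The 2 NIC samples were pools, each mixed in equal amounts from 5 NIC tumours, and the abbreviation is left here as the labels have it. The 2 normal glands came from the same strain with no tumour allele named. The labels give no ages, no promoter for either allele and no tumour stage. Every RNA was set against a commercial universal mouse reference RNA on 2 two-colour Agilent arrays with the dyes exchanged, and a level below is the mean log2 ratio of sample over reference from that dye pair. A level of 0 therefore equals the reference, and levels of different probes are not on a common scale.

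Erbb2 itself was higher in the KI tumours than in normal glands (2.04 to 4.22 in KI, against -0.07 to -0.06 in normal; adjusted p = 0.00208), by the brightest of its 3 probes. Correlations over all probes were 0.704 to 0.886 among KI tumours, 0.929 between NIC pools and 0.871 between normal glands. The luminal keratins Krt8 and Krt18 were 2.15 and 1.66 log2 units higher in KI tumours than in normal gland (adjusted p = 0.00217 and 0.00604). In NIC pools they were 2.31 and 1.74 higher (adjusted p = 0.0203 and 0.0326). Of the 10 luminal markers 6 were higher and 1 lower in KI tumours (adjusted p under 0.05), where 20.1% of all probes were higher and 22.2% lower. In NIC pools 6 were higher and 2 lower, where 9.82% and 8.62% of all probes were. Leptin (Lep), an adipocyte hormone, was 4.58 and 4.51 log2 units lower in KI tumours and NIC pools than in normal gland (adjusted p = 2.92e-05 and 0.013). KI arrays and the other arrays were deposited in 2 tables of different platform records, so the KI group, its table and its platform cannot be told apart. Only NIC against normal stays within a single table. Of the 13 probes, 12 were well above background in the tumour channel on 10 of 10 KI arrays. The second Vim probe reached this on 3 of 10 in the tumour channel, so its values near -0.1 are not read as levels.

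The sequence that Snail and Zeb proteins recognise is the E-box CAGGTG, which reads on the opposite strand as CACCTG. It was looked for in the 250 bases before the transcription start, in the RefSeq promoter table (GRCm38.p6). It occurred in 17.2% of the 32851 promoter entries, in 12 of 21 entries matched to the 28 epithelial junction and identity genes, in 0 of 19 matched to the mesenchymal list and in 1 of 8 matched to the members. Among the members, Snai1, Twist1, Twist2, Zeb2 and Vim had entries. The 21 epithelial entries came from 17 of the 28 genes, and E-cadherin (Cdh1) had none. Of the 17 genes 10 had a match, against 19.4% of all 27025 genes with entries. The 19 mesenchymal entries came from 16 of 28 genes. The members Snai1 (chr2:167537945-167538194) and Twist1 (chr12:33957421-33957670) are shown because they varied most between single KI tumours among the members with an entry, and Crb3 (chr17:57061951-57062200) and Epcam (chr17:87635729-87635978) because they are epithelial genes that were high in both tumour types. All lie on the plus strand, and capitals mark the E-box.
Snai1: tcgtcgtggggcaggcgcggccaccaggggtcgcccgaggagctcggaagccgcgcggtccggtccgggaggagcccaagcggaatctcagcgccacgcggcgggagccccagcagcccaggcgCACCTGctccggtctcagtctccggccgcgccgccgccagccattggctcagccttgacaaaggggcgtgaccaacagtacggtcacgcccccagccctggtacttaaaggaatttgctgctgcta
Twist1: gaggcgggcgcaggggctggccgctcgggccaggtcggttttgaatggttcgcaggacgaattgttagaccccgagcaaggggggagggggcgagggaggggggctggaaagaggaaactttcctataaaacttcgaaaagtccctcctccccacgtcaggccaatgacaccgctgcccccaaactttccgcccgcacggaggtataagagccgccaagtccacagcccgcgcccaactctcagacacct
Crb3: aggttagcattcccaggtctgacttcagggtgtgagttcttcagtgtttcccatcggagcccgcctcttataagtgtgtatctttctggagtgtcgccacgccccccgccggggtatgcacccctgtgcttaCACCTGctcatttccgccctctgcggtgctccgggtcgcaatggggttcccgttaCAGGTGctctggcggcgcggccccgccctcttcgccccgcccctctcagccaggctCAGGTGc
Epcam: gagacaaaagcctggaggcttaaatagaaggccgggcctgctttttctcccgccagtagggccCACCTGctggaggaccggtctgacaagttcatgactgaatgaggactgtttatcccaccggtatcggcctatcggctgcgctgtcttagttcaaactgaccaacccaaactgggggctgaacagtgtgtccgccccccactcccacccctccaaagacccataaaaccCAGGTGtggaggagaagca
Snai1 held a single E-box, starting 126 bases before the start site. Crb3 held 3, the nearest starting 7 bases before the start, and Epcam held 2, at 187 and 19 bases. A match describes these letters only.

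Snai2, Twist2, Zeb1 and Zeb2 were lower in both tumour types than in normal gland, Twist1 and Vim were lower in NIC pools, and the single KI tumours differed several-fold from each other for Snai1, Twist1, Snai2 and Vim. A gene was called when its adjusted p was under 0.05 (limma across all 41174 probes, two-sided, Benjamini-Hochberg). In KI tumours against normal gland 4 of 8 leading probes were lower and 1 was higher, where 42.2% of all probes were called, 22.2% lower and 20.1% higher. In NIC pools against normal gland 6 of 8 were lower and 0 higher, where 18.4% of all probes were called, 8.62% lower and 9.82% higher. In KI tumours against NIC pools 2 of 8 were higher and 0 lower, where 6.99% of all probes were called, 3.02% higher and 3.97% lower. The median difference of the 8 genes was -1.54, -2.49 and 0.97 log2 units in these comparisons, and that of all probes was 0.01, -0.02 and 0.0001. In whole tissue, fewer cells of a type and less RNA per cell cannot be told apart.

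**Figure D1:**
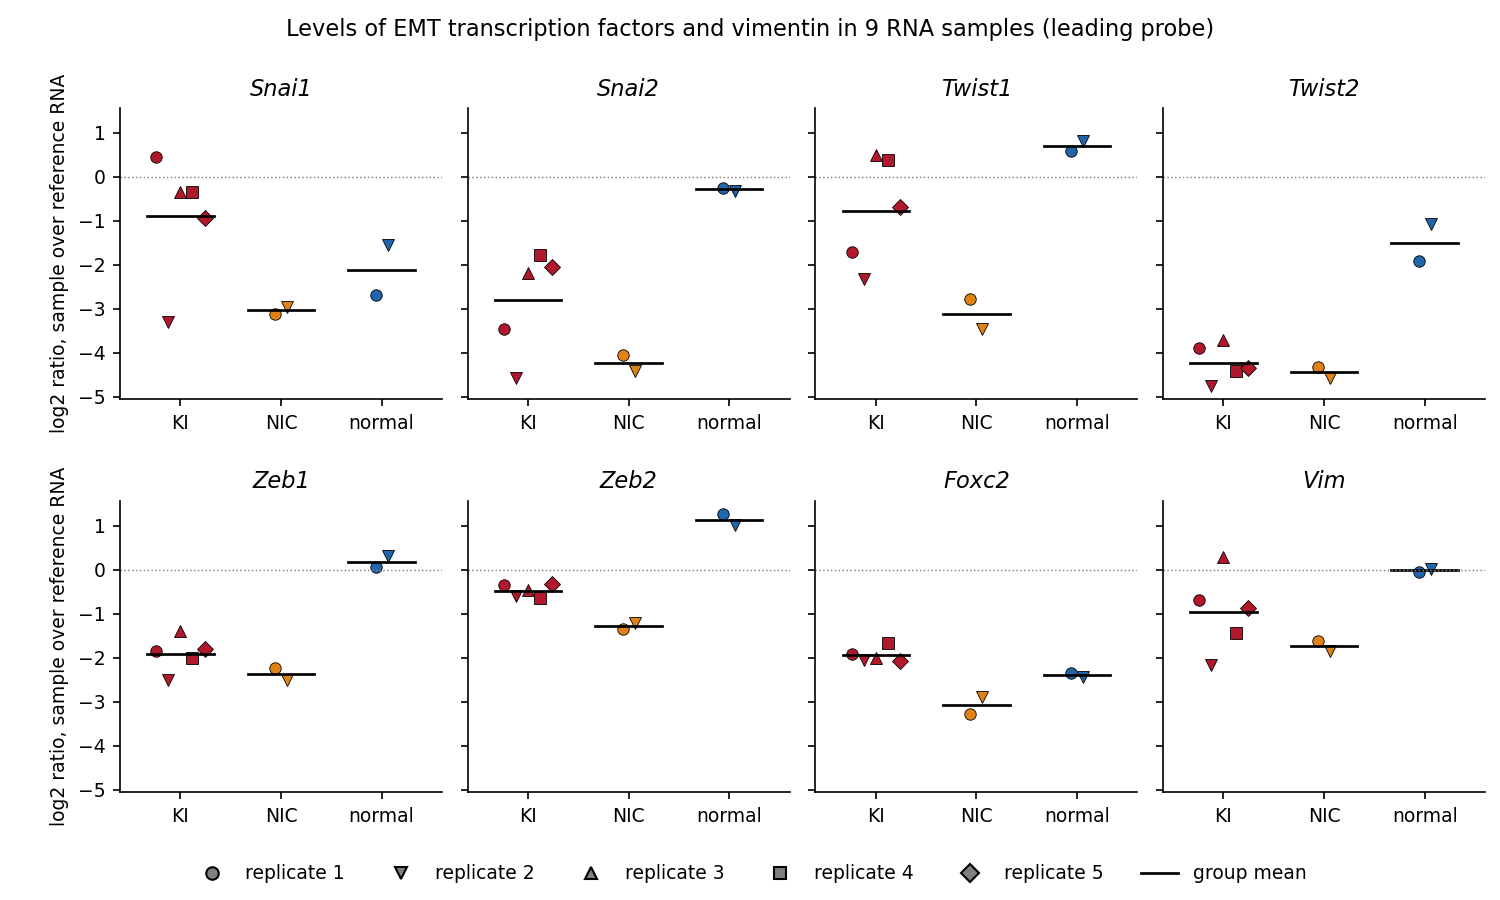
Log2 ratio of sample over reference RNA for the leading probe of each gene, in 5 KI tumours, 2 NIC pools and 2 normal glands. Each symbol is an RNA sample (mean of its dye pair), and bars are group means. Snai2, Twist2, Zeb1 and Zeb2 lie below normal gland in every tumour sample, and Snai1 spans 3.77 log2 units among the KI tumours.

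Snai1, the Snail zinc-finger repressor, had levels of 0.46, -3.31, -0.34, -0.33 and -0.93 in KI tumours 1 to 5, against -3.13 and -2.95 in the NIC pools and -2.68 and -1.55 in the normal glands. In 4 KI tumours Snai1 lay above every NIC and normal sample, and KI tumour 2 lay below them all. The dyes differed by at most 0.21 in any KI tumour, far below the 3.77 between tumours 1 and 2, a 13.6-fold range. In the first NIC pool they differed by 1.41, and in Cy3 that pool, at -3.83, lay below KI tumour 2, at -3.41. No call was made over all 5 tumours: KI minus normal was 1.23 ± 0.92 (SE; adjusted p = 0.321), and KI minus NIC was 2.15 ± 0.92 (adjusted p = 0.216). Without KI tumour 2 both were called, at 1.83 over normal (adjusted p = 0.0179) and 2.75 over NIC (adjusted p = 0.0193). KI minus NIC was also called with scanner intensities and with the RNA as a random block (adjusted p = 0.043 and 0.0301). Scanner intensities replaced the KI values only, so in that setting, here and below, KI and the other groups stand on unlike scales. NIC minus normal was -0.92 ± 0.44 (adjusted p = 0.219). It was -1.49 without the first normal gland (adjusted p = 0.0422), -0.35 without the second (0.205) and -1.86 with arrays scaled to 1 interquartile range (0.0353).

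Snai2, or Slug, a Snail-family factor of basal mammary epithelium and stroma, was lower in all tumour samples than in either normal gland. Its levels were -3.46, -4.57, -2.20, -1.78 and -2.05 in the KI tumours, -4.05 and -4.41 in the NIC pools, and -0.25 and -0.32 in the normal glands. The NIC difference from normal was -3.95 ± 0.17, a 15.4-fold lower level (adjusted p = 0.00936). The KI difference was -2.53 ± 0.73 (adjusted p = 0.0271), which was lost without KI tumour 1 (adjusted p = 0.0503) or without either normal gland (0.113 and 0.108). KI tumour 2 lay below both NIC pools and the other 4 above them, tumour 1 nearest. The dyes of the first NIC pool differed by 1.09. In Cy5 KI tumour 2, at -4.42, lay above the second NIC pool, at -4.52. KI minus NIC was 1.42 ± 0.73 and did not pass (adjusted p = 0.301). With KI values from scanner intensities, on their unlike scale, it did (1.89, adjusted p = 0.0386). The 2 Snail genes thus did not move as a pair: KI tumour 1 had the highest Snai1 level of all samples and the second lowest Snai2 among KI tumours.

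Twist1, a basic helix-loop-helix factor of mesenchyme, had levels of -1.71, -2.32, 0.50, 0.38 and -0.68 in the KI tumours, against -2.78 and -3.45 in the NIC pools and 0.58 and 0.82 in the normal glands. KI tumours 3 and 4 came close to the normal glands, and tumours 1 and 2 were closer to the NIC pools. The NIC pools fell below normal by 3.82 ± 0.28, or 14.1-fold (adjusted p = 0.013), a call lost without the second normal gland (adjusted p = 0.052). KI minus normal, at -1.47 ± 0.78, was not called (adjusted p = 0.171). On dye-pair means all 5 KI tumours lay above both NIC pools. The mean difference was 2.35 ± 0.78, which also missed the threshold (adjusted p = 0.124). In Cy5 KI tumour 2, at -2.85, lay below the first NIC pool, at -2.31. In Cy3 KI tumour 3, at 0.725, lay above the first normal gland, at 0.715. With all arrays fitted and the RNA as a random block, Twist1 was called against normal gland and against NIC pools (adjusted p = 0.0416 and 0.00892).

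Twist2, the paralogue of Twist1 and a factor of dermal and other mesenchyme, was low in all tumours. Its levels were -3.88, -4.75, -3.72, -4.41 and -4.35 in the KI tumours, -4.32 and -4.56 in the NIC pools, and -1.92 and -1.07 in the normal glands. No tumour sample came near a normal gland, and KI tumours and NIC pools overlapped. The fall was 2.73 ± 0.32 in KI tumours (6.62-fold, adjusted p = 0.000859) and 2.95 ± 0.35 in NIC pools (7.71-fold, adjusted p = 0.0228). KI minus NIC was 0.22 ± 0.32 (adjusted p = 0.753). With KI values taken from scanner intensities the KI difference from normal was -1.59 and KI minus NIC was 1.36 (adjusted p = 0.0128). The KI range of 1.04 for Twist2 was smaller than the 2.82 of Twist1.

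Zeb1, a zinc-finger and homeodomain repressor of E-cadherin, was lower in every tumour sample than in normal gland. It had levels of -1.84, -2.50, -1.40, -2.0 and -1.79 in the KI tumours, -2.24 and -2.51 in the NIC pools, and 0.06 and 0.31 in the normal glands. The tumours of both models overlapped, and the highest of them stayed well below both normal glands. The fall was 2.09 ± 0.26 in KI tumours (4.26-fold, adjusted p = 0.00102) and 2.56 ± 0.16 in NIC pools (5.9-fold, adjusted p = 0.0113). The difference between the tumour types, KI over NIC, was 0.47 ± 0.26 (adjusted p = 0.337), and 0.84 with KI values from scanner intensities (adjusted p = 0.0288).

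Zeb2, the other Zeb repressor, also fell in both tumour types, and less so in KI tumours. The leading probe had levels of -0.35, -0.60, -0.46, -0.64 and -0.32 in the KI tumours, -1.34 and -1.21 in the NIC pools, and 1.27 and 1.01 in the normal glands. The 3 groups did not overlap, and the KI tumours spanned only 0.32. KI minus normal was -1.61 ± 0.12 (3.05-fold lower, adjusted p = 0.000152), NIC minus normal -2.41 ± 0.14 (5.32-fold lower, adjusted p = 0.0106) and KI minus NIC 0.80 ± 0.12 (1.74-fold higher, adjusted p = 0.0107). The last was lost without the first NIC pool (adjusted p = 0.085). The remaining Zeb2 probes did not all repeat this.

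The second Zeb2 probe read 1.31, -0.63, 1.10, -0.71 and 0.66 in the KI tumours, -1.30 and -1.50 in the NIC pools, and 1.65 and 1.67 in the normal glands. It split the KI tumours, with 1, 3 and 5 nearer the normal glands and 2 and 4 between those and the NIC pools, where the leading probe put all 5 together. It was called in NIC pools against normal (-3.06 ± 0.12, adjusted p = 0.00936) and not in KI tumours against normal (-1.31 ± 0.59, adjusted p = 0.114), although with scanner intensities and with the random block it was (adjusted p = 0.0133 and 0.0161). Probes 3, 4 and 5 of Zeb2 were dimmer, with 32.8%, 30.6% and 18.0% of probes below them in signal. None of those 3 was called in any comparison over all samples. Probe 3 was called higher in KI tumours than in NIC pools when the RNA was a random block (0.91, adjusted p = 0.00547), and higher than in normal gland with scanner intensities (0.60, adjusted p = 0.0448). Without the second normal gland probe 4 was called lower in KI tumours and NIC pools than in normal gland (adjusted p = 0.0186 and 0.0415). On probe 4 the normal glands differed from each other by more than the tumours did, at 0.99 and -1.26. Probe 5 stayed between -0.41 and 0.26 in all 9 samples. Probes 2, 4 and 5 were assigned through older symbols, and which Zeb2 transcripts they read is not given in the sources used here.

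**Figure D2:**
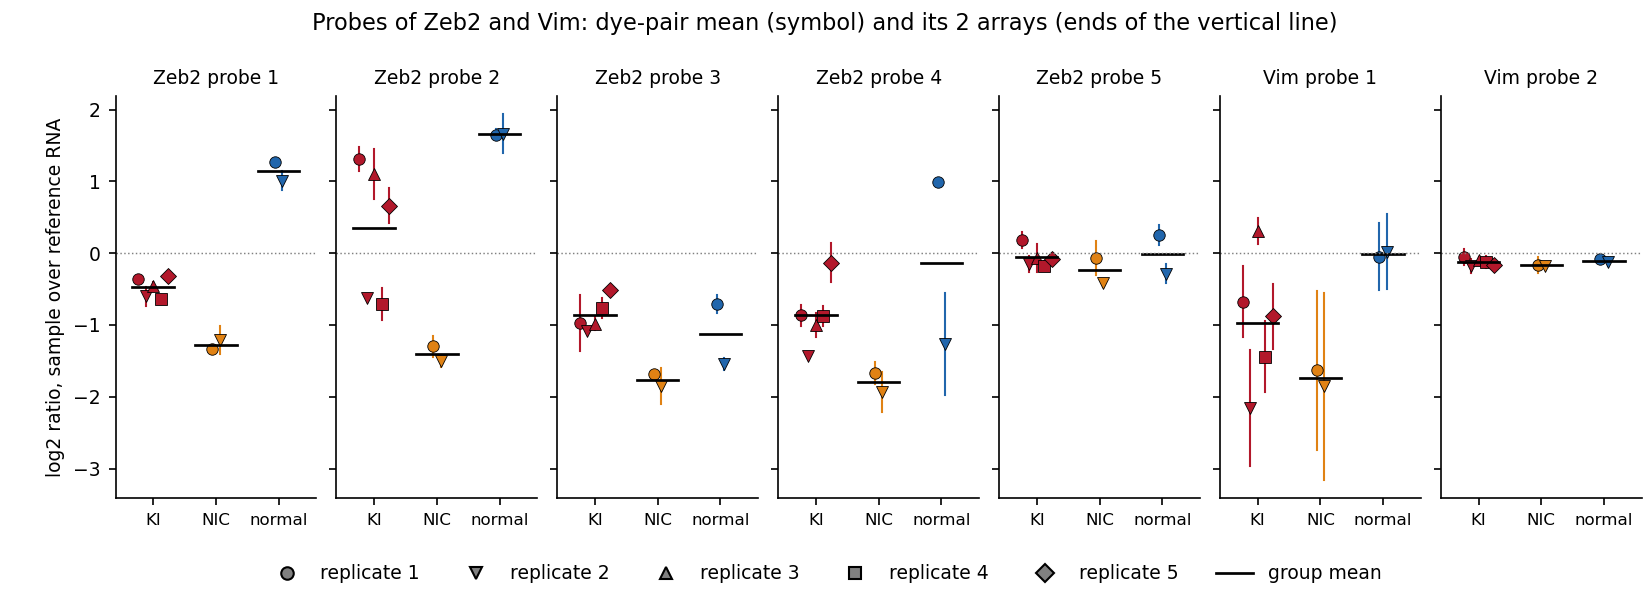
Log2 ratios of the 5 Zeb2 probes and the 2 Vim probes in KI tumours, NIC pools and normal glands. Symbols are dye-pair means, line ends are the 2 arrays of each RNA, and bars are group means. The first 2 Zeb2 probes separate NIC pools from normal glands, and the dye pairs of the first Vim probe differ by up to 2.61.

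Foxc2, a forkhead factor of mesenchyme and lymphatic vessels, spanned 0.41 log2 units over the KI tumours. Its levels were -1.91, -2.06, -2.01, -1.66 and -2.07 in the KI tumours, -3.28 and -2.88 in the NIC pools, and -2.35 and -2.43 in the normal glands. On dye-pair means all KI tumours lay above all other samples, and the NIC pools lay lowest. In Cy5 KI tumours 1, 2 and 5, at -2.20, -2.24 and -2.27, lay below the first normal gland, at -2.17. The second NIC pool and the second normal gland both read -2.57 in Cy5. KI tumours were higher than NIC pools by 1.14 ± 0.14 (2.20-fold, adjusted p = 0.00676), a call lost when only arrays with the sample in Cy5 were used (adjusted p = 0.0772). They were higher than normal gland by 0.45 ± 0.14 (adjusted p = 0.0402), but with all arrays scaled to 1 interquartile range the direction turned to -0.66 (adjusted p = 0.0176), so this direction rests on the scale. That call was also lost when only arrays with the sample in Cy5 were used (0.28, adjusted p = 0.405). The same held without the 2 KI arrays whose intensities were extracted on the day with fewer arrays (adjusted p = 0.103). It was lost too without KI tumour 1, 3 or 5 (adjusted p of 0.0504 to 0.0703). Without the first or the second normal gland the difference was 0.49 or 0.41. NIC minus normal was -0.69 ± 0.18 (adjusted p = 0.0787). It was called at -1.71 with scaled arrays (adjusted p = 0.0162), with all 9 samples in the fit (0.0177) and with the random block (0.0252).

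Vim, the vimentin filament gene, gave one of the brightest signals on the KI arrays, with 99.3% of probes dimmer, and its leading probe was saturated on 2 of 10. Its levels were -0.68, -2.16, 0.30, -1.44 and -0.88 in the KI tumours, -1.63 and -1.85 in the NIC pools, and -0.05 and 0.02 in the normal glands. On dye-pair means KI tumour 3 lay above both normal glands and KI tumour 2 below both NIC pools. Neither order held in both single dyes. NIC pools were lower than normal by 1.73 ± 0.13 (3.31-fold, adjusted p = 0.0127). The size depended on the dye: in the NIC pools Vim read -2.73 and -3.16 with the sample in Cy3 and -0.52 and -0.55 with it in Cy5, against -0.52 and -0.50 in Cy3 and 0.42 and 0.54 in Cy5 in the normal glands. The NIC pools were the lower group in either dye. In a fit of all 9 samples the call was lost (adjusted p = 0.0832). KI minus normal, -0.96 ± 0.57, was not called (adjusted p = 0.213), but was without KI tumour 3 (-1.27, adjusted p = 0.0452). KI minus NIC was 0.77 ± 0.57 (adjusted p = 0.48).

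**Figure D3:**
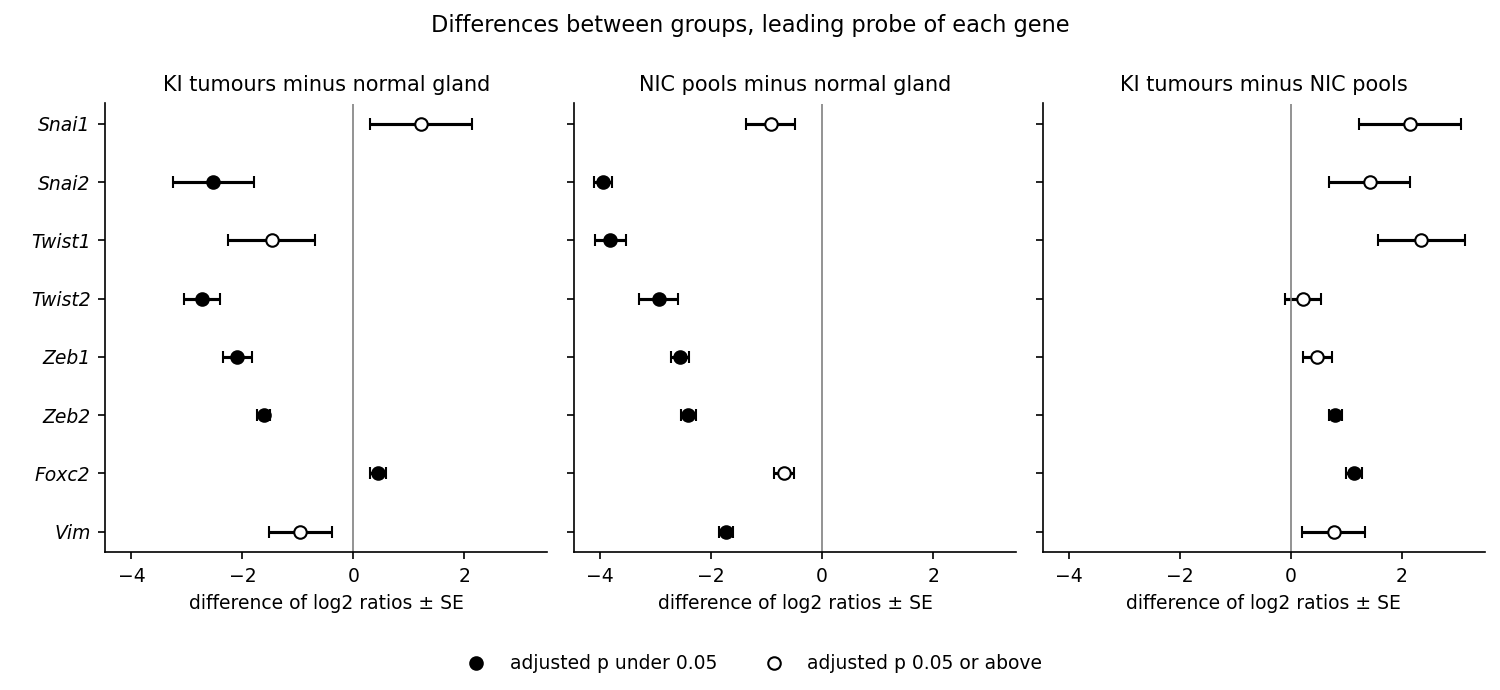
Differences of log2 ratios with their standard errors for the leading probe of each gene, in KI tumours minus normal gland, NIC pools minus normal gland and KI tumours minus NIC pools. Filled symbols have an adjusted p under 0.05. All 8 genes lie below 0 in NIC pools minus normal gland and above 0 in KI tumours minus NIC pools, and the value of Foxc2 in KI tumours minus normal gland turns below 0 when arrays are scaled to 1 interquartile range.

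The 3 comparisons share samples and are not independent. In KI tumours against NIC pools the 12 member probes other than the second Vim probe had a difference above 0, with a median of 0.92, and 2 of them passed the test, against 3.02% of all probes called higher. When arrays were scaled to 1 interquartile range Twist2 turned to -0.19. The orders of samples that follow are those of dye-pair means. For KI tumours, those of Twist1 did not hold in Cy5 against NIC pools or in Cy3 against normal glands. That of Foxc2 against normal glands did not hold in Cy5. All KI tumours lay above both NIC pools for 3 of the 8 leading probes (Twist1, Zeb2 and Foxc2), as for 16.1% of all probes, and below them for 0, as for 15.8%. All KI tumours lay below both normal glands for 5 leading probes (Snai2, Twist1, Twist2, Zeb1 and Zeb2), as for 27.5% of all probes, and above them for 1 (Foxc2), as for 27.2%. Both NIC pools lay below both normal glands for 8 of 8 leading probes, as for 37.7% of all probes, and above them for 0, as for 33.8%. The 8 include Snai1 and Foxc2, which were not called over all samples and whose order did not hold in Cy5. There the first NIC pool read -2.42 for Snai1, above the first normal gland at -2.45. For Foxc2 the second NIC pool and the second normal gland both read -2.57 in that dye. With either NIC pool left out no probe on the array was called in that comparison, so none of the 6 member calls was kept (adjusted p of 0.0852 to 0.128), although the differences kept their direction. Only 2 samples a group stand behind each such call.

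The single KI tumours differed widely in some of the 8 genes and little in others. KI tumour 2 was the lowest of the 5 for 6 of 8 genes (Snai1, Snai2, Twist1, Twist2, Zeb1 and Vim), and KI tumour 3 was the highest for 4 (Twist1, Twist2, Zeb1 and Vim). The range over the 5 tumours was 3.77 log2 units for Snai1, 2.82 for Twist1, 2.79 for Snai2, 2.46 for Vim, 1.10 for Zeb1, 1.04 for Twist2, 0.41 for Foxc2 and 0.32 for Zeb2. The spread of Foxc2 and the leading Zeb2 probe was of the size of their dye gaps, which reached 0.58 and 0.26 in KI tumours.

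KI tumour 2 was also lowest in stromal and basal markers. It had the lowest median of the 5 KI tumours in 6 of 9 cell-type marker lists. For the 10 fibroblast markers the median was -1.53 in KI tumour 2, against -0.38, 0.23, -0.88 and 0.00 in tumours 1, 3, 4 and 5. For the 10 endothelial markers it was 0.73, against 1.5 to 2.25 in the others, and for the 9 myoepithelial markers 0.27, against 0.52 to 1.91. Its luminal median, 2.28, was the highest of the 5. KI tumour 3 had the highest fibroblast and myoepithelial medians. The part of these cell types in the spread of the 8 genes was not tested.

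**Figure D4:**
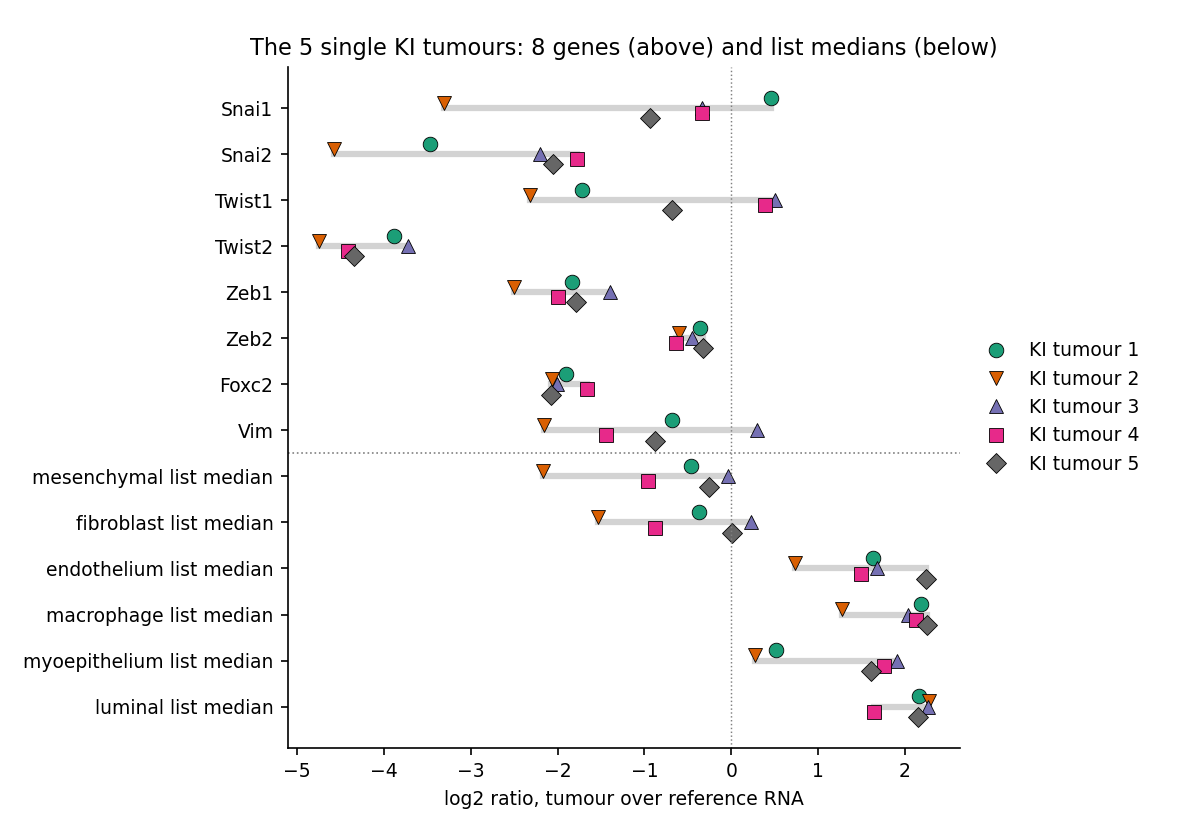
Levels of the 8 genes by leading probe (upper rows) and median levels of marker lists (lower rows) in the 5 KI tumours, as log2 ratio of tumour over reference RNA. Grey bars span the 5 tumours. KI tumour 2 is lowest for 6 of the 8 genes and for the fibroblast, endothelial, macrophage and myoepithelial medians.

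Between groups, the fibroblast, endothelial and adipocyte medians were lower in both tumour types than in normal gland. The fibroblast median ranged from -1.53 to 0.23 in KI tumours and from -1.77 to -0.59 in NIC pools, against 0.48 to 0.54 in normal glands. Of the 10 fibroblast markers 4 were called lower and 0 higher in KI tumours, where 22.2% and 20.1% of all probes were. In NIC pools 5 were called lower and 0 higher, where 8.62% and 9.82% of all probes were. Pdgfra and Dcn (decorin) were 3.34 and 3.96 log2 units lower in KI tumours than in normal gland (adjusted p = 0.00697 and 0.00178). In NIC pools they were 3.82 and 4.70 lower (adjusted p = 0.0219 and 0.0239). The sum of the 10 fibroblast ratios was 8.89 to 32.7 in KI tumours and 5.14 to 12.3 in NIC pools, against 54.2 to 64.7 in normal glands. Endothelial medians were 0.73 to 2.25 in KI tumours and 0.62 to 1.05 in NIC pools, against 2.69 to 3.03 in normal glands. Adipocyte medians were 0.02 to 0.59 in KI tumours and 0.15 to 0.37 in NIC pools, against 3.74 to 4.24 in normal glands. In the other direction, the luminal medians were 1.65 to 2.28 in KI tumours and 2.05 to 2.25 in NIC pools, against 0.94 to 1.13 in normal glands. What share of the lower EMT factor levels goes with these cell types was not tested.

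Pericyte and smooth muscle medians overlapped between groups, at 0.27 to 1.17 in KI tumours and 0.27 to 0.84 in NIC pools, against 0.81 to 1.60 in normal glands. Macrophage medians were 1.27 to 2.25 in KI tumours and 1.04 to 1.17 in NIC pools, against 1.13 to 1.27 in normal glands. Myoepithelial medians were 0.27 to 1.91 in KI tumours and 0.35 to 0.66 in NIC pools, against 1.21 to 1.60 in normal glands. Lymphocyte medians were -0.30 to -0.13 in KI tumours and -0.24 to -0.17 in NIC pools, against 0.05 to 0.54 in normal glands. Nerve and Schwann cell medians were 0.45 to 0.65 in KI tumours and 0.78 to 0.93 in NIC pools, against 0.41 to 0.49 in normal glands. Of the 10 macrophage genes 2 rose and 0 fell in KI tumours against normal gland, where 20.1% of all probes were called higher and 22.2% lower.

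Epithelial junction and identity genes, among them known targets of Snail and Zeb repression such as E-cadherin, were mostly higher in both tumour types. Of 28 junction and identity genes, 23 rose and 0 fell in KI tumours against normal gland (median difference 2.03), where 20.1% of all probes were called higher. In NIC pools 21 rose and 0 fell (median 1.91), where 9.82% of all probes were called higher. Occludin (Ocln), a tight-junction protein, and Epcam, an epithelial adhesion molecule, were higher in KI tumours by 3.53 and 3.37 (adjusted p = 0.000186 and 0.000443). Epcam and the epithelial splicing factor Esrp1 were higher in NIC pools by 3.87 and 3.71 (adjusted p = 0.0296 and 0.0118). Crb3, the polarity gene with 3 E-boxes above, had levels of 2.03 to 3.10 in KI tumours and 2.88 to 3.21 in NIC pools, against -0.42 to 0.64 in normal glands. E-cadherin (Cdh1) was higher by 0.56 in KI tumours and 0.52 in NIC pools (adjusted p = 0.00971 and 0.0483). The median level of the epithelial list lay between 2.33 and 2.89 over the 5 KI tumours, against 0.58 to 0.69 in normal glands. The lowest of these, 2.33, was that of KI tumour 1, which had the highest Snai1 level. KI tumour 2, which had the lowest Snai1 level, had the second lowest median, and the highest, 2.89, was that of KI tumour 3. The order of these medians thus did not follow that of Snai1, and a link between them was not tested. Of the 28 genes, 6 also stand in the luminal marker list.

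Between the tumour types 24 of these 28 genes were not called. Krt19, a luminal keratin, and Elf3, an epithelial Ets factor, were higher in KI tumours than in NIC pools by 3.19 and 1.28 (adjusted p = 0.0306 and 0.0235). Rab25, an epithelial trafficking protein, and Ovol2, a factor that represses Zeb1, were lower by 0.73 and 0.63 (adjusted p = 0.0433 and 0.0388). No epithelial gene was called lower without KI tumour 2, 4 or 5, without either NIC pool, with the sample in Cy3 or among brighter probes, and none was called higher without KI tumour 5 or the first NIC pool.

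Most mesenchymal and matrix genes were not called. In KI tumours against normal gland 2 of 28 were called lower and 2 higher (median difference -0.22), below the 22.2% and 20.1% of all probes. In NIC pools 8 were called lower and 0 higher (median -1.23), where 8.62% and 9.82% of all probes were, and 3 to 5 were called lower without a normal gland and 0 without a NIC pool. Pdgfra and the matrix protein gene Tgfbi were lower in NIC pools, Tgfbi by 2.27 (adjusted p = 0.0195). In KI tumours Pdgfra and S100a4, a calcium-binding protein of motile cells, were lower, S100a4 by 0.87 (adjusted p = 0.00419). The matrix glycoprotein tenascin C (Tnc) and smooth muscle actin (Acta2) were higher, by 2.86 and 1.87 (adjusted p = 0.00109 and 0.00304). Tnc was also the single gene of the 28 called between KI tumours and NIC pools (3.13, adjusted p = 0.00519), where 3.02% of all probes were called higher. Its levels were 0.29 to 1.64 in KI tumours, -2.38 to -2.01 in NIC pools and -2.10 to -1.75 in normal glands. Of this list 5 genes are also fibroblast markers. N-cadherin (Cdh2) was called in none of the comparisons, with levels of -4.65 to -3.01 in KI tumours, -5.17 to -4.43 in NIC pools and -4.22 to -2.64 in normal glands.

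KI tumour 2 carried weight in this list as well. Its median over the 28 mesenchymal genes was -2.16, against -0.96 to -0.03 in the other 4 KI tumours. Without it 6 of the 28 genes were called higher and 3 lower against normal gland, and 9 were called higher than in NIC pools. Of all 41174 probes, 16786 were then called in either direction against normal gland and 3157 against NIC pools. With KI tumour 2 kept, 20.1% of all probes were called higher and 22.2% lower against normal gland. Against NIC pools 3.02% were called higher. The 6 genes higher than in normal gland were thus no clear excess over all probes.

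**Figure D5:**
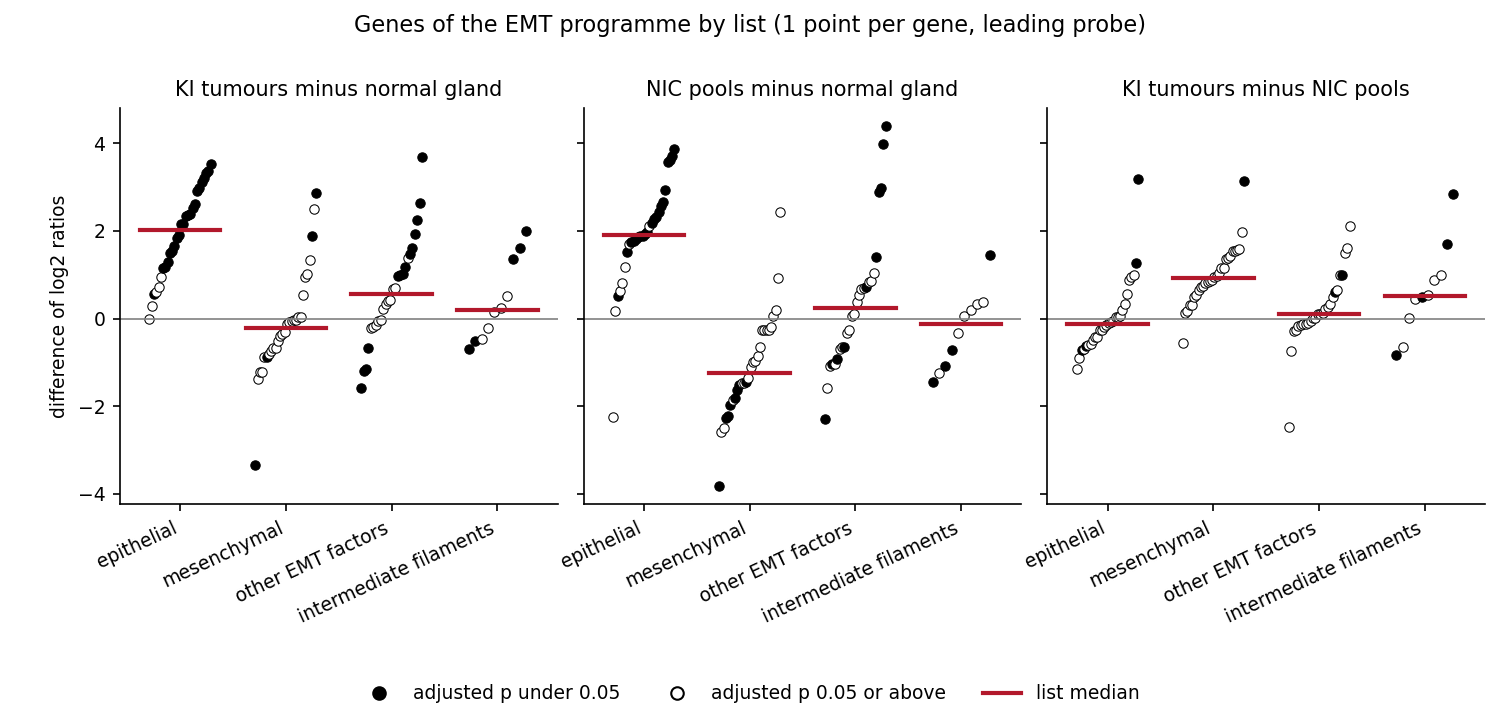
Differences of log2 ratios for each gene (1 point, leading probe) of the epithelial, mesenchymal, other EMT factor and intermediate filament lists, in KI tumours minus normal gland, NIC pools minus normal gland and KI tumours minus NIC pools. Filled points have an adjusted p under 0.05 and red bars are list medians. The epithelial medians lie at 2.03 and 1.91 in the first 2 panels and the mesenchymal medians at -0.22 and -1.23.

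Other EMT transcription factors were called in both directions. Of 26 genes, 10 rose and 4 fell in KI tumours against normal gland (median 0.55), where 20.1% of all probes were called higher and 22.2% lower. In NIC pools 6 were higher and 4 lower (median 0.24), where 9.82% and 8.62% of all probes were. Foxc1, the forkhead relative of Foxc2, was higher by 3.70 in KI tumours and 3.97 in NIC pools (adjusted p = 2.92e-05 and 0.00936). Its levels were 0.82 to 1.52 in KI tumours and 1.54 to 1.55 in NIC pools, against -2.46 to -2.40 in normal glands. Foxc2 was also higher in KI tumours, by 0.45 and depending on the scale, and was not called in NIC pools (-0.69). Sox4, an SRY-box factor, was higher by 2.63 in KI tumours (adjusted p = 0.000608). Id2, an inhibitor of basic helix-loop-helix factors, was higher by 4.39 in NIC pools (adjusted p = 0.0146), while its relative Id1 was lower by 2.30 there (adjusted p = 0.00936). Tcf4, an E-protein partner of Twist, was lower by 1.04 in NIC pools (adjusted p = 0.0182). The homeobox gene Gsc and the T-box gene Tbx3 were lower in KI tumours by 1.59 and 1.20 (adjusted p = 0.0038 and 0.0033). Snai3, the remaining Snail gene, was called in none of the comparisons and read -0.02 to 0.33 in all samples.

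The 10 other intermediate filament genes were also called in both directions. In KI tumours against normal gland 3 were called higher and 2 lower, and in NIC pools 1 higher and 3 lower, where the shares of all probes were the same as for the list above. Lamin B1 (Lmnb1), of the nuclear lamina, was higher by 1.99 in KI tumours and 1.46 in NIC pools (adjusted p = 0.000292 and 0.029). The basal keratin Krt14 was higher by 1.62 in KI tumours than in normal gland (adjusted p = 0.0017) and by 2.85 than in NIC pools (adjusted p = 0.00195). Desmin (Des), the muscle filament, and the basal keratin Krt5 were lower by 1.44 and 1.09 in NIC pools (adjusted p = 0.0136 and 0.0398). Gfap and Nes, filaments of glial and progenitor cells, were lower by 0.70 and 0.50 in KI tumours (adjusted p = 0.000561 and 0.0141).

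For each member whose level spanned at least 2 log2 units over the 9 samples, the 3 genes with the most similar profile were looked up among 19099 named genes, by the root mean square difference of profiles centred on their own means. Foxc2 did not reach that range. For Snai1 they were Col18a1, Moxd1 and Krt80 (0.22, 0.25 and 0.26 log2 units). For Snai2 they were Tspan18, Megf9 and Aoc3 (0.42, 0.45 and 0.53). For Twist1 they were Fads3, Id4 and Snai2 (0.47, 0.49 and 0.61), so that a member recurred beside another. The neighbours of Twist2 were Cyp4v3, Itgb7 and Kank3 (0.25, 0.27 and 0.27) and those of Zeb1 were Hmgcs1, Unc45b and Gimap6 (0.12, 0.15 and 0.16). Zeb2 had Grap, Fam217b and B3gnt9 (0.15, 0.16 and 0.17), and Vim had Tgfb1i1, Flt1 and H2-M3 (0.22, 0.25 and 0.25). Snai2 and Twist1, whose KI levels varied by tumour and fell far below normal gland in the NIC pools, had the most distant neighbours, and Zeb1 had the nearest. These are descriptions over 9 samples measured against a common reference, with no test.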

How the data were processed

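The authors' deposited tables give each array as a log2 ratio of its sample to the reference RNA, normalized before deposit. RMA appears in the submitters' processing notes without a role, and no further step is stated in the sources used. For the KI table, unit and sign follow from the scanner intensities of the same arrays (r = 0.982 to 0.988 after normexp with offset 50 and loess; slope 1.19 to 1.25). Per the file headers, Agilent's Feature Extraction software wrote those intensities and a log10 ratio that is not used for results. Unit and sign of the NIC and normal table were taken by analogy. Column medians lay between -0.0099 and 0.026, and interquartile ranges were 0.422 to 0.562 for KI, 0.514 to 0.559 for NIC and 0.761 to 0.970 for normal columns. Label fields set the dyes, although the labelling text of 7 KI arrays states them the other way round.

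Spots were joined to probes by number through the KI scanner files, leaving out 2256 control spots of 43790. Probes were named by accession (20716), symbol (5039) or older symbol (5279) through a RefSeq gene table (GRCm38.p6), and 10140 kept the file's name. Each RNA sample is the mean of its dye pair. Comparisons used limma 3.58.1 in R 4.3.3 (lmFit, eBayes, two-sided, Benjamini-Hochberg over 41174 probes), and the code was tested on simulated data. NIC against normal was fitted on its 4 RNA samples. Both KI comparisons came from 1 fit of all 9, in which pools and single tumours share 1 spread and the tables are crossed. Labels name each gland, pool and tumour but no litters, so the p-values reflect only the scatter among these samples, and the number of arrays limits the precision. Alternatives covered dye, scale, centring, source of the KI values, samples in the fit, random block, dim probes, 1 probe per gene and each sample left out. They also covered the extraction day, on which the image software extracted the spot intensities of the KI arrays by the file headers. The smaller such day held 2 of 10 KI arrays. With scanner intensities only the KI values were replaced. Deposited KI ratios had a slope of 1.19 to 1.25 on these, so the KI ratios were then compressed against the NIC and normal ones. Calls gained in that setting can come from this difference of scale.

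The members and gene lists were chosen with earlier results of these data known. Named list genes, other than cell-type markers, are the 2 of largest difference called in each direction in NIC and in KI against normal. Named cell-type markers come from the first 2 genes of each marker list. Genes called between tumour types, and Cdh1, Cdh2, Crb3 and Snai3, were named after their values were seen.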

Additional observations from a re-analysis of the deposited data

Results flagged for a closer look

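Of the tests of the difference between tumour types, 2 member probes passed: the leading Zeb2 probe at 0.80 and Foxc2 at 1.14 log2 units, KI tumours over NIC pools. Among marker medians of the 5 KI tumours, a single tumour stood apart in 3 of 9 lists, by its gap to the next tumour relative to the range. The rule is one of proportion, and the lymphocyte medians lay only between -0.30 and -0.13. It was also applied to the member probes and the other gene lists, where no tumour stood apart. KI tumour 2 was low in the macrophage list, at 1.27, and in the lymphocyte list, at -0.30. KI tumour 4 was low in the luminal epithelium list, at 1.65. By chance about 1 in 20 groups would show such a gap. No member gene did, although KI tumour 2 was the lowest for 6 of 8.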

How the results depend on the processing

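With 2 samples a group, NIC against normal depended most on single samples: leaving out a sample gave 0 to 5051 called probes and 0 to 8 member probes called lower, with 0 in both cases when either NIC pool was left out (9364 and 10592 probes then had an unadjusted p under 0.05 in limma). All probes called numbered 15060 with all 9 samples in the fit, 15384 with the RNA as a random block, 2905 with the sample in Cy3 and 4939 among probes above the median signal, against 7594. KI against normal had 11101 calls with arrays scaled to 1 interquartile range and 9525 among brighter probes, against 17391. Its count of member probes called higher, 1, was 2 with scanner intensities, and 0 with scaled arrays, with Cy5 arrays and without the smaller extraction day, and 0 to 2 with a sample left out. KI against NIC had 1760 calls with 1 probe per gene, 6027 with scanner intensities, 6073 with the random block and 1210 among brighter probes, against 2878, and 821 to 3157 with a sample left out. Member probes called higher there, 2, numbered 8 with scanner intensities, 6 with the random block, 1 with Cy5 arrays and 1 to 3 with a sample left out. The cause of these shifts was not tested.

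Directions turned as follows. Foxc2 in KI against normal was -0.66 with scaled arrays. Twist2 in KI against NIC was -0.19 with scaled arrays. Among probes not called over all samples, Zeb2 probe 3 was -0.24 with scaled arrays and -0.16 to 0.68, probe 4 -1.85 to 0.40 and probe 5 -0.32 to 0.23 with a sample left out, all in KI against normal. Probe 5 was also 0.0034 in Cy3 and -0.50 to 0.045 with a sample left out in NIC against normal, and -0.014 in Cy3 in KI against NIC. The second Vim probe, near background, was 0.11 in Cy5 and -0.043 to 0.0035 with a sample left out in KI against normal, and -0.063 with scanner intensities and -0.075 in Cy3 in KI against NIC. Zeb1 and the leading Zeb2 probe kept their calls in KI against normal in 19 of 19 alternatives and Twist2 in 18 of 18. Of the epithelial genes, 11 were called higher in NIC against normal with Cy3 arrays alone. In KI against NIC 2 were called lower, against 8 with scanner intensities, 0 with Cy3 arrays and 0 to 2 with a sample left out. No paired analysis was possible because the labels give no replicate numbers that the groups share.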
